A study of Homo sapiens with 8 samples.

Results

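A group of 6 genes of secreted signaling proteins and their carriers or inhibitors was examined after PLK1 knockdown: the chemokine CCL2, the cytokine IL24, the matrix phosphoprotein SPP1 (osteopontin), the activin subunit INHBA, the protease inhibitor SERPINA3 and the insulin-like growth factor carrier IGFBP5. They were taken by symbol from the deposited table of transcript clusters, where they hold 7 of 491 clusters and 6 of 305 gene symbols. A transcript cluster gathers the array probes of a transcribed locus, and the table classes each as coding or noncoding. SPP1 has a coding and a noncoding cluster, and the other 5 genes have a coding cluster each. The members were selected on the very averages described here, as the table lists only clusters past 2-fold between the groups. The paper gives a p-value limit for its gene list as well. No test of these differences was therefore made.

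A375 is a human melanoma cell line. A375 shPLK1 cells carry a doxycycline-inducible shRNA against the mitotic kinase PLK1, and the control A375 shNS cells carry the matching nonsense shRNA. Both lines were treated with doxycycline for 48 h. The Methods describe the shNS and shPLK1 lines of the study as lentivirally transduced, stable polyclonal pools. They call the lines of the arrays previously created, without their make-up. A group was therefore taken as 1 pool of cells, and its replicates as samples of that pool. Total RNA of 4 shPLK1 and 4 shNS samples was hybridized to Affymetrix Human Transcriptome Array 2.0 microarrays. The design text gives 3 replicates per group, and the arrays behind the averages of the table are not named in it. The table heads its groups 5d and NS, and 5d, which no source used here defines, was read as shPLK1. On chromosome 18, where the exon probe sets of the labelled arrays called by limma at an adjusted p under 0.05 were 1015 higher and 134 lower in shPLK1, 24 of 27 table clusters are higher under 5d. PLK1 has no cluster in the table, and its knockdown was not checked on these arrays.

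Secreted factors act outside the cell that makes them. Chemokines draw leukocytes along a gradient, cytokines and activins signal through paired receptors at the cell surface, and osteopontin binds integrins and CD44. Protease inhibitors and growth factor binding proteins set how much active enzyme or ligand is left around the cell. In melanoma, factors of these classes are known as part of the exchange between tumor cells, stroma and immune cells.

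CCL2 and IL24 were higher, and SPP1, INHBA, SERPINA3 and IGFBP5 were lower, in shPLK1 than in shNS cells. The differences spanned 2.83 for CCL2 to -3.46 for SERPINA3 on the log2 scale. By cluster, 2 were higher and 5 lower, beside 37.7% higher and 62.3% lower among all 491 clusters of the table. The median difference of the 7 clusters was -1.57, that of all lower clusters of the table was -1.47 and that of all higher ones 1.24. These shares and medians describe the selection and carry no test. Bulk RNA was measured, so fewer expressing cells in a pool and less RNA per cell cannot be told apart.

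**Figure D1:**
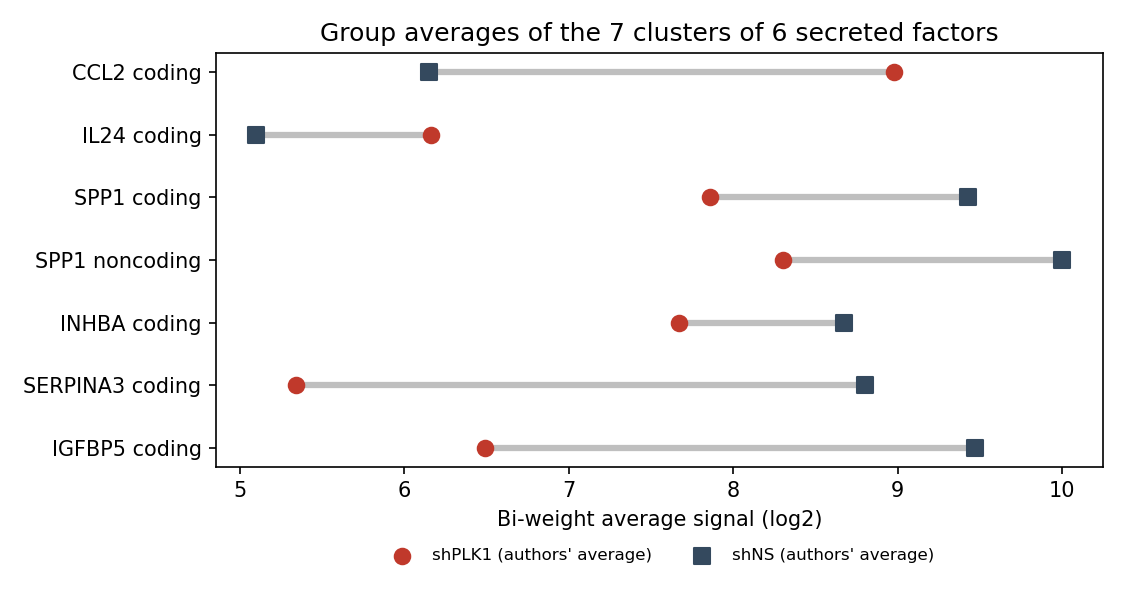
Bi-weight average signal (log2, x axis) of each of the 7 clusters (y axis) in shPLK1 (circles) and shNS (squares), as deposited, with no spread given. CCL2 and IL24 have the shPLK1 average on the right, while the other 5 clusters have it on the left, at a distance of 1.0 to 3.46.

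CCL2, a ligand of the receptor CCR2 that recruits monocytes, had an average of 8.98 in shPLK1 and 6.15 in shNS cells on the log2 scale. The difference of 2.83 corresponds to a 7.11-fold higher average (7.06 to 7.16 from the rounding of the deposited averages alone). It ranked 1 of the 185 higher clusters of the table by size. IL24, a cytokine of the interleukin 10 family that signals through receptors shared with interleukins 19 and 20, averaged 6.16 in shPLK1 and 5.10 in shNS cells. Its difference of 1.06 (2.08-fold) ranked 150 of 185. CCL2 and IL24 thus shared the direction but lay far apart in size among the higher clusters.

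SPP1 encodes osteopontin, a secreted phosphoprotein bound by integrins and CD44. Its coding cluster averaged 7.86 in shPLK1 and 9.43 in shNS cells, a difference of -1.57 on the log2 scale (2.97-fold lower). The noncoding cluster averaged 8.30 in shPLK1 and 10 in shNS cells, with a difference of -1.70 (3.25-fold lower). Both clusters differed in the same direction, and their differences were 0.13 apart. Among the 36 symbols of the table with a cluster of each kind, all 36 had both kinds in the same direction, with a median gap of 0.29. Whether the clusters of a symbol share probes is not known here, so they were not counted as separate evidence.

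INHBA encodes the subunit of activin A and of inhibin A, ligands of the TGF-β superfamily. It averaged 7.67 in shPLK1 and 8.67 in shNS cells. The difference of -1.0 lies at the 2-fold limit of the table, where it ranked 305 of 306 lower clusters. IL24, at 1.06, is the other gene close to the limit, and 105 of the 491 clusters lie within 0.1 of the smallest difference. No cluster outside the limit is listed, so values just outside it could not be given.

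SERPINA3 encodes α1-antichymotrypsin, a secreted inhibitor of serine proteases such as cathepsin G. It averaged 5.34 in shPLK1 and 8.80 in shNS cells. The difference of -3.46 (11.0-fold lower, 10.9 to 11.1 from rounding) ranked 7 of 306 lower clusters. IGFBP5, which binds insulin-like growth factors outside the cell, averaged 6.49 in shPLK1 and 9.47 in shNS cells, a difference of -2.98 (7.89-fold lower) that ranked 13 of 306. In shPLK1 the signals of SERPINA3 and IGFBP5 were at 9.09% and 12.7% of their shNS levels on the linear scale. The 23 background controls of the array had means of 1.36 to 10.8 with a median of 2.98 on the log2 scale. All averages of the 7 clusters lie within that range and above that median, so the folds need not be exact sizes.

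**Figure D2:**
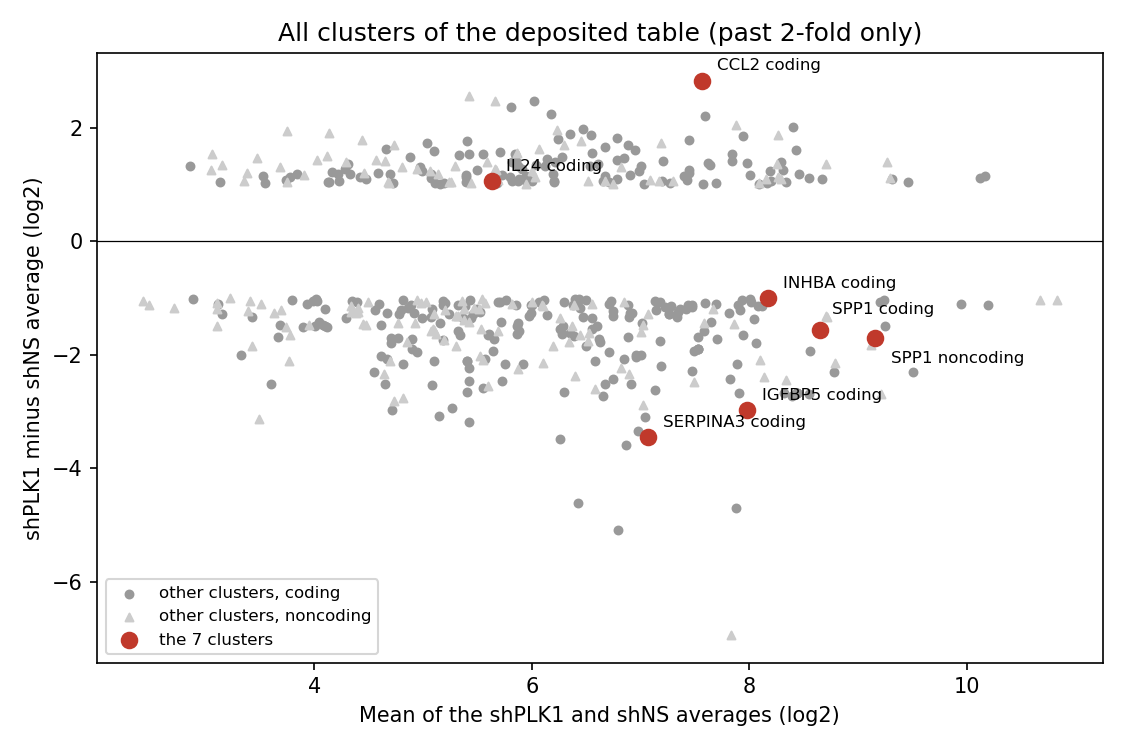
Difference of the group averages (shPLK1 minus shNS, log2, y axis) against their mean (log2, x axis) for all 491 clusters of the deposited table, with the 7 clusters as large labelled points. The band around 0 is empty because the table holds no cluster under 2-fold, and CCL2 at 2.83 is the highest point.

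The table gives neither a spread nor values by array for a cluster. Which probe sets of the 8 arrays belong to these genes was not identified, for want of a table of their genes. As a stand-in, single exon probe sets with a mean signal within 0.25 log2 units of the mean of a cluster's averages were read from the 8 arrays. Their median within-group SD was 0.15 for the signal of the noncoding SPP1 cluster (17239 exon probe sets), 0.18 for that of CCL2 (30776), 0.19 for SERPINA3 (34582) and 0.23 for IL24 (41117). For INHBA, IGFBP5 and the coding SPP1 cluster it was 0.17, 0.17 and 0.16. The cluster differences were 4.53 (IL24) to 18.3 times (SERPINA3) that SD. As the table holds only differences past 2-fold, ratios of several SDs were fixed in advance and do not measure signal over noise. A cluster average combines several probe sets, so this SD is not its error.

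The same exon probe sets show how common such differences were on the arrays. Of those around the signal of CCL2, 8 of 30776 (0.026%) were higher in shPLK1 by 2.83 or more. For SERPINA3, 17 of 34582 (0.0492%) were lower by 3.46 or more, and for IGFBP5 26 of 26990 (0.0963%) by 2.98 or more. A difference as large as that of SPP1 was found for 0.475% of exon probe sets around its coding and 0.342% around its noncoding cluster. For IL24 and INHBA the shares were 1.07% and 1.34%. CCL2, SERPINA3 and IGFBP5 thus lay further out among exons of like signal than the other 3 genes. Over all 573909 exon probe sets, limma with Benjamini-Hochberg adjustment called 1.99% higher and 2.20% lower in shPLK1 at an adjusted p under 0.05. In the windows of the members that fit called 2.22% to 3.85% higher and 2.66% to 3.65% lower. A separate fit of only the 286955 exons at or above the median signal, adjusted among these alone, called 4.35% and 4.53%. Its shares are therefore not on the same footing as those of the windows. These exons were not assigned to genes, they include any exons of the 6 genes themselves, and the contrast is the one that chose the members, so the shares are a description.

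**Figure D3:**
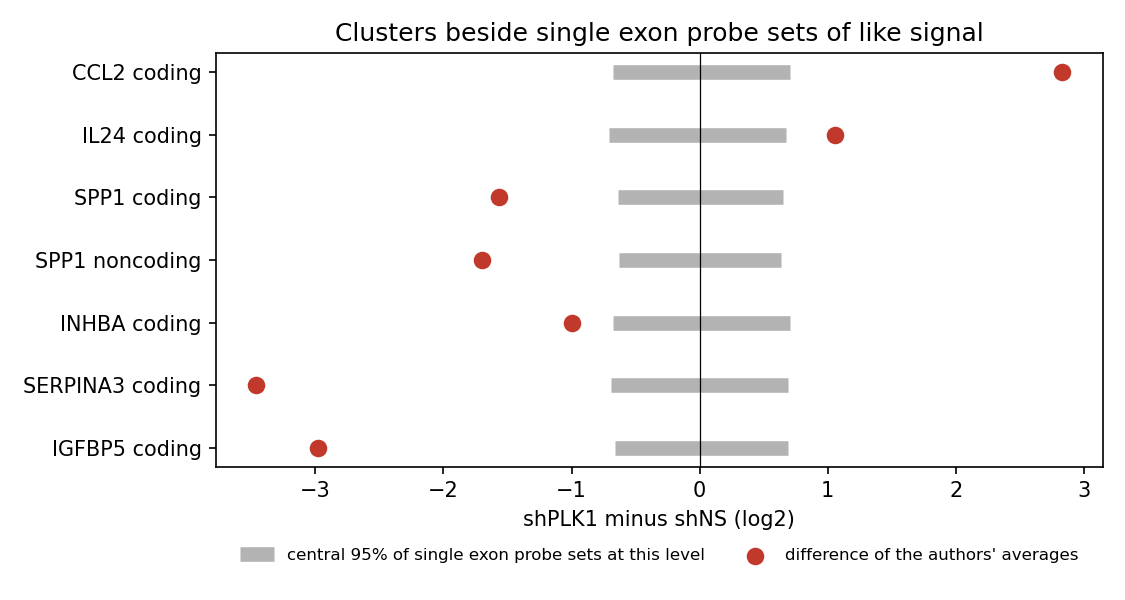
Difference between shPLK1 and shNS (log2, x axis) of each cluster (points) beside the central 95% of differences of single exon probe sets of like signal on the 4 shPLK1 and 4 shNS arrays (grey bars). The bars run from about -0.7 to 0.7, and the points had to lie outside them, since the table holds no cluster under 2-fold.

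The 6 genes lie on 6 chromosomes, and the chromosome in each cluster ID was the one RefSeq gives for the gene. Whole-chromosome shifts of the exon signal (shPLK1 minus shNS) were set against all chromosomes on the 8 arrays. On the 6 chromosomes of the members they were small beside the differences of the members. The 2-fold limit of the table fixed this in advance, and shifts of part of a chromosome were not tested. Larger whole-chromosome shifts were seen on other chromosomes, such as 0.38 on chromosome 18 and -0.25 on chromosome 13. Chromosome 17, which carries CCL2, was at 0.023 (SE 0.0053, adjusted p = 0.0038 from limma, fitted to 23 chromosomes). Its shPLK1 arrays were at 0.0013 to 0.017 and its shNS arrays at -0.017 to -0.0048, without overlap. Chromosome 1, which carries IL24, was at -0.067 (SE 0.0064, adjusted p = 9.2e-06 from limma), opposite in direction to IL24, and at -0.042 over exons of all signal levels. On that chromosome the 4 shPLK1 arrays were at -0.046 to -0.020 and the 4 shNS arrays at 0.023 to 0.039.

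Chromosome 4, which carries SPP1, was at -0.024 (SE 0.0061, adjusted p = 0.0061 from limma). Its shPLK1 arrays were at -0.020 to -0.0072, below its shNS arrays at 0.00068 to 0.026. Chromosome 2, with IGFBP5, was at -0.022 (SE 0.0070, adjusted p = 0.019 from limma), with shPLK1 arrays at -0.021 to 0.00062 overlapping shNS arrays at -0.0017 to 0.021. Over exons of all signal levels, chromosomes 17, 4 and 2 no longer passed the threshold (adjusted p of 0.080, 0.089 and 0.22 from limma). Chromosome 2 also missed it without shPLK1 replicate 4, shNS replicate 1 or shNS replicate 4 (adjusted p of 0.060, 0.066 and 0.056 from limma). Chromosomes 7 (INHBA) and 14 (SERPINA3) differed by 0.0015 and 0.0052, with adjusted p of 0.84 and 0.43 from limma. The value of chromosome 14 was 0.0020 without shPLK1 replicate 3.

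**Figure D4:**
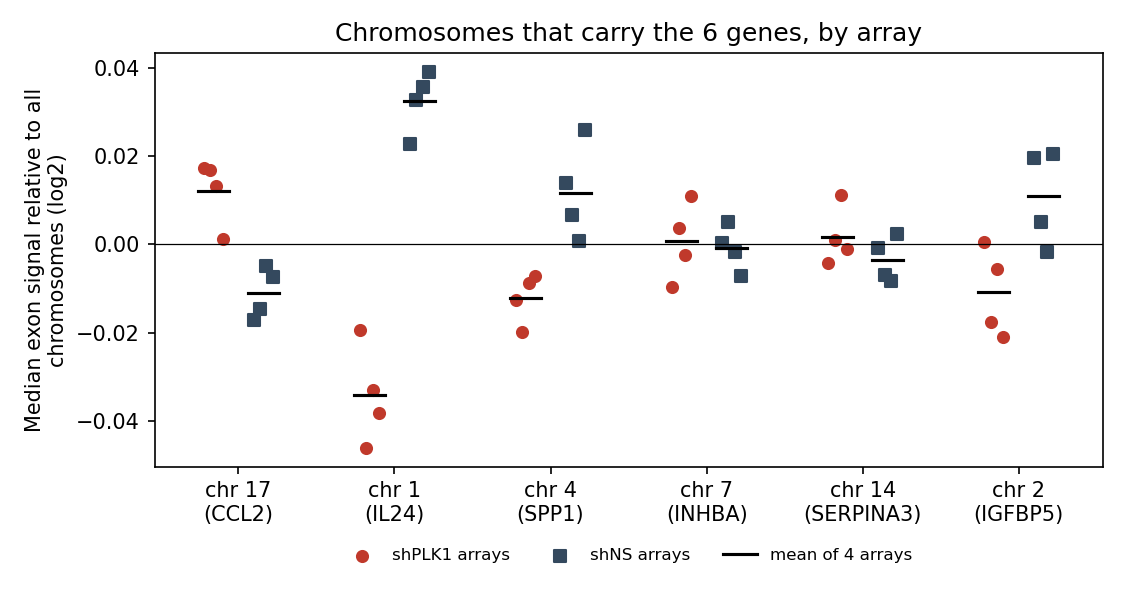
Median exon signal of each chromosome that carries one of the 6 genes, relative to all chromosomes (log2, y axis), for the 4 shPLK1 arrays (circles) and the 4 shNS arrays (squares), with bars at the means. The points span -0.046 to 0.039, and chromosome 1, with IL24, has the widest gap between the groups.

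Of the 5 closest annotated protein-coding genes on each side of a member, none of 60 has a cluster in the table, beside 231 of all 20056 protein-coding genes (1.15%). So small a background leaves nothing to read from that count. Several neighbors belong to the family of the member. CCL2 is followed by the chemokine genes CCL7, CCL11, CCL8, CCL13 and CCL1, and IL24 follows IL10, IL19 and IL20. SPP1 stands beside DSPP, DMP1, IBSP and MEPE, which encode related phosphoproteins of bone and teeth. SERPINA3 follows 5 other genes of the SERPINA family, and IGFBP5 stands next to IGFBP2. An unlisted gene may have changed less than 2-fold, have missed the p-value limit or have no cluster, so absence is no measure of its level.

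**Figure D5:**
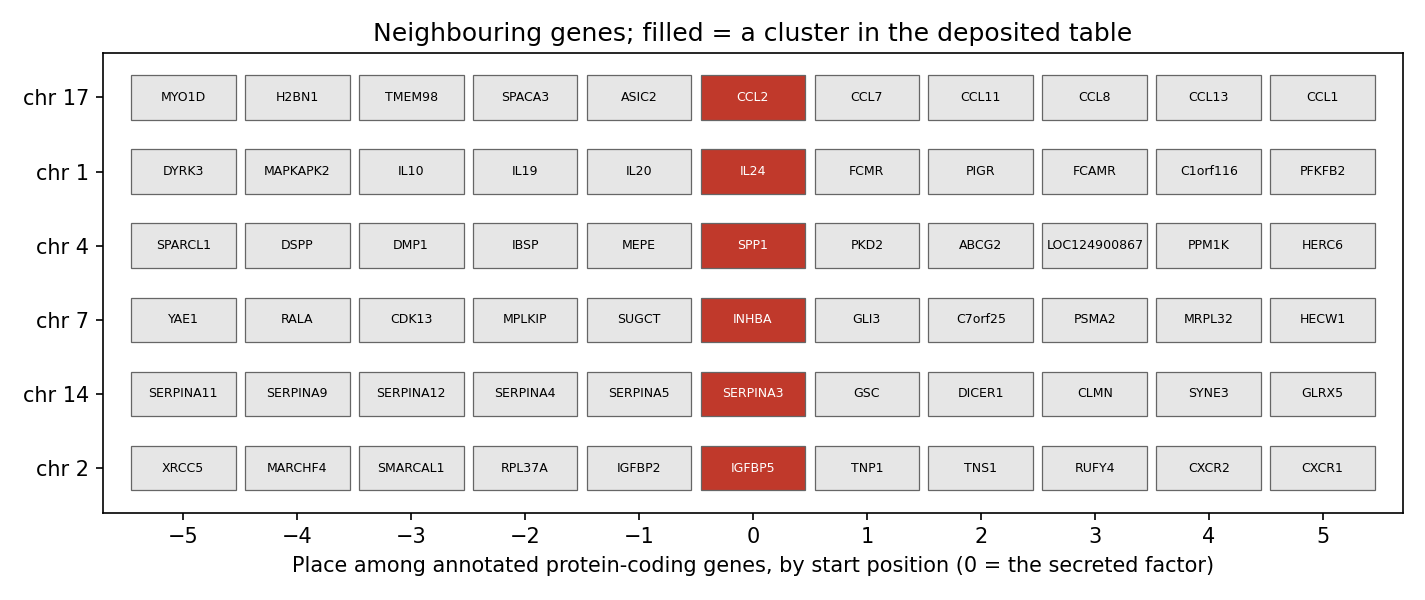
Order of annotated protein-coding genes around each of the 6 members (x axis, place by start position; rows, chromosomes), with genes that have a cluster in the deposited table filled. The filled boxes are the 6 members in the middle column, and none of the 60 neighbors is filled.

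Of 188 genes on 8 lists of related pathways, 11 are in the table, 6 of them the members, beside the 1.15% of all protein-coding genes given above. The members were on the lists by choice, and no excess is read from these counts. The other 5 divide into 2 higher and 3 lower in shPLK1. Among 16 genes of the osteopontin family and its receptors, the integrin subunit ITGB3, which pairs with αV to bind osteopontin, averaged 8.50 in shPLK1 and 9.99 in shNS cells (difference of -1.49). ITGB8, another partner of αV, had differences of -1.27 in its coding and -1.60 in its noncoding cluster. The ligand SPP1 and both integrin subunits thus had lower averages, and CD44 and ITGAV are not listed.

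Among 32 genes of activin and TGF-β signaling, SMAD3, which carries the signal of activin and TGF-β receptors to the nucleus, averaged 9.85 in shPLK1 and 8.73 in shNS cells in a noncoding cluster (difference of 1.12). TGFBR2, the type II receptor of TGF-β, averaged 8.60 in shPLK1 and 7.58 in shNS cells, also in a noncoding cluster (difference of 1.02). Both thus lay opposite in direction to INHBA, and no coding cluster of either is listed. In the insulin-like growth factor axis, 2 of 19 genes are listed, IGFBP5 and IGFBP7, a further secreted binding protein. IGFBP7 averaged 7.41 in shPLK1 and 8.45 in shNS cells (difference of -1.04).

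CCL2 is the 1 listed gene of 44 chemokines and chemokine receptors, IL24 the 1 of 12 genes of the interleukin 10 family and its receptors, and SERPINA3 the 1 of 27 serpins and target proteases. None of 17 other cytokines and none of 21 transcription factors of inflammatory genes, such as those of the NF-κB, AP-1 and STAT families, is listed. With 1.15% of all protein-coding genes in the table, lists this short leave nothing to read from such counts. Of 21 markers for melanoma cells, fibroblasts, macrophages, endothelial cells and keratinocytes, the table lists LYZ, 1 of 5 macrophage markers, with averages of 6.60 in shPLK1 and 7.66 in shNS cells. All samples are of the cultured A375 line, so LYZ was not read as a sign of macrophages. The 5 melanoma markers are not listed, so the identity of the cells could not be checked from the table.

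By the pair of group averages, the symbol nearest to CCL2 was TRPC4, at a distance of 0.44 log2 units, while CYP4F11 lay 0.054 from IL24. GAGE2B was nearest to INHBA (0.13), GAGE1 to the coding SPP1 cluster (0.20), ITGB3 to the noncoding one (0.20), HLA-DRB4 to SERPINA3 (0.16) and HLA-DRB1 to IGFBP5 (0.24). The likeness rests on 2 averages per cluster and on different probes.

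Promoter sequences from RefSeq (GRCh38.p14) were read for 5 of the 6 genes, IL24, SPP1, INHBA, SERPINA3 and IGFBP5. CCL2 had no match in the promoter set used, so the motif counts leave it out and IL24 is the only higher gene in them. They are shown because 4 of these genes were lower together and IL24 was higher, which allows a search for letters shared by the lower genes. Each window ends at the base before the annotated start and is written in the direction of transcription, with the motifs found in capitals. The INHBA window is kept to 30 bases, since a longer form of the gene starts further upstream. The windows are chr4:87975534-87975713 (plus strand), chr7:41703091-41703120 (minus strand), chr14:94612211-94612390 (plus strand), chr2:216695550-216695729 (minus strand) and chr1:206897263-206897442 (plus strand), in the order below.
SPP1: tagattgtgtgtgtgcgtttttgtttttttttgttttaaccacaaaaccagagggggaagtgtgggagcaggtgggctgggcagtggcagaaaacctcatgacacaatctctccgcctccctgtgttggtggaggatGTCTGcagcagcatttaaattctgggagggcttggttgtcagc
INHBA: gtacaaataagtagtacagTATAAAacttc
SERPINA3: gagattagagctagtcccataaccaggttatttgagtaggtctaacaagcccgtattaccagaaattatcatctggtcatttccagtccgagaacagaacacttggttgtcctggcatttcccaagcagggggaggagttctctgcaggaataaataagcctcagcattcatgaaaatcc
IGFBP5: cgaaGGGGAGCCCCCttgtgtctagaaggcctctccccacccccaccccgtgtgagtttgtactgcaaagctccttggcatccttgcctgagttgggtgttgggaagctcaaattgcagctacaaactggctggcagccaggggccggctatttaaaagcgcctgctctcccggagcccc
IL24: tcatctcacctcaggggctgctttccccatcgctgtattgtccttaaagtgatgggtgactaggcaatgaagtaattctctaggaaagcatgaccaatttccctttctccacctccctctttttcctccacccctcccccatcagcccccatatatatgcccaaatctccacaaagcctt

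In SPP1 the capitals mark the SMAD element CAGAC, read on the opposite strand as GTCTG at position -43 from the start. In INHBA they mark TATAAA at -11, and in IGFBP5 a pair of overlapping matches to the κB motif from -176. No motif searched was found in the SERPINA3 and IL24 windows printed. All motifs were searched on both strands over 250 bases before to 50 bases after the start. CAGAC was found for SPP1, INHBA and SERPINA3, 3 of the 5 genes, while 45.3% of all 35116 promoters hold it. The κB motif was found for 1 gene, against 11.3% of all promoters. TATAAA, against 11.5%, was found for INHBA, and CATGTG, against 11.1%, also for INHBA. The AP-1 motif TGANTCA, the STAT motif TTCNNNGAA and CACGTG, held by 7.71%, 7.66% and 7.26% of all promoters, were found in none of the 5. The 4 lower genes shared no motif of this set. The GC content of the 250 bases before the start was 40.0% for SERPINA3, 42.8% for INHBA, 44.8% for SPP1, 51.6% for IL24 and 61.2% for IGFBP5, beside a median of 58.0% over all promoters.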

How the data were processed

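The values are the authors' deposited log2 signals. RMA (background correction, quantile normalization and probe summary) was run by them in the Affymetrix Transcriptome Analysis Console. It shrinks large ratios near background. The genome build and annotation are not given in the sources used here. The deposited table of 491 clusters, filtered to 2-fold and, by the paper's account of its gene list, by p-value, holds bi-weight log2 averages of each group. Its columns of fold changes, p-values and FDR were not used. Differences are shPLK1 minus shNS averages, and folds are powers of 2 of them.

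The array values cover 573909 exon probe sets on 8 arrays. Pairs of arrays had a Pearson's r of 0.979 to 0.991 across exons, which are no replicates. limma 3.58.1 in R 4.3.3 (group as the only term, default eBayes, no filter, Benjamini-Hochberg over all exon probe sets) was tested on simulated data. The chromosome shift is the median, per array, of the exon signal minus its mean over the arrays (mean signal of at least 7), less that of all chromosomes. The labels call the replicates biological, and the Methods describe cells plated in wells. As each group was taken as 1 pool, p-values measure the spread between samples of a pool. The number of arrays limits the precision.

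The members, lists, motifs, windows and tests were chosen with earlier results of these data known. Named genes are the members, listed genes of the pathway lists, neighbors and the nearest symbol. RefSeq names (GRCh38.p14) matched 259 of 305 symbols of the table. Alternatives were junction probe sets, a level filter, repeated rows left out, renormalization, a replicate block, windows and arrays left out. Gene-level values by array and protein sequences were not analysed here.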

Additional observations from a re-analysis of the deposited data

How the results depend on the processing

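The 7 clusters have no alternative processing of their own, as their averages were read as deposited. Coding clusters alone, or 1 cluster a gene, gave 2 higher and 4 lower. The noncoding clusters alone, those of SPP1, gave 0 higher and 1 lower. The median SD around each cluster moved by less than its own size under all 84 alternatives run, a limit too wide to be missed easily. Among them were windows of 0.1 and 0.5, the window around the shNS average, junction probe sets and each array left out. With the window around the shNS average the SD went from 0.18 to 0.22 for CCL2 and from 0.19 to 0.16 for SERPINA3. With junction probe sets it went from 0.23 to 0.27 for IL24. Calls among exon probe sets were 11422 higher and 12624 lower, and as counts stayed within 1.5 times of these under all 13 alternatives each (8140 to 9614 higher and 9800 to 11198 lower with 1 array left out). The fit of only the 286955 probe sets at or above the median level, the upper part of the signal range, was adjusted among these alone. It called 4.35% of them higher and 4.53% lower. With the replicate number as a block the calls over all exon probe sets were 8077 and 9161. Same-numbered arrays of the groups did not deviate together (r of -0.15 to 0.042 over 4 pairs), so the numbers were not taken to pair the samples, and the block changed no call on the 6 chromosomes that carry the members. Over exons of all levels the chromosome shifts were -0.0086 for chromosome 2, -0.020 for chromosome 4 and 0.015 for chromosome 17, no longer past the threshold, for which the cause was not tested, and -0.042 for chromosome 1, still past it. With 1 array left out, the shift was -0.026 to -0.018 on chromosome 2, 0.0020 to 0.0072 on chromosome 14, and -0.0019 to 0.0050 on chromosome 7, where its sign turned without shPLK1 replicate 4 (-0.0019) or shNS replicate 4 (-0.00056). In the 250 bases before the start alone, CAGAC was found in 1 member and CATGTG in 0, since fewer bases were searched.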
